A study of Mus musculus with 11 samples.

Results

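Expression of 9 transcription factors of the macrophage lineage was followed along the mouse epididymis: Maf, Spi1 (which encodes PU.1), Cebpa, Cebpb, Runx1, Runx3, Mef2c, Nr1h3 and Bhlhe40. The 9 genes were taken by name from a table of 37583 genes. The table holds 8 of them under these symbols and Spi1 under its earlier symbol Sfpi1, so it was found by its Ensembl identifier. The cells were EGFP+ mononuclear phagocytes from 12-week-old CX3CR1 EGFP +/- mice, in which EGFP is expressed under the control of Cx3cr1, the fractalkine receptor gene. The regions, from proximal to distal, were the initial segments (IS, 4 libraries), caput/corpus (3 libraries) and cauda (4 libraries). Every library, in all 3 regions, came from mice of this one genotype and from 4 epididymides, and cells were sorted in 2 rounds. The labels do not state which animals a library came from, so that the spread between libraries may be partly technical.

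PU.1 and the C/EBP proteins are lineage-determining factors: they bind early in myeloid differentiation, open the regulatory elements of macrophage genes and are present in mature cells as well. RUNX1 acts with PU.1 during commitment to the myeloid lineage, and RUNX3 is known from mononuclear phagocytes of epithelial tissues. c-MAF and MEF2C belong to the factors that shape the tissue-resident state, and the nuclear receptor LXR alpha, encoded by Nr1h3, is activated by oxysterols and switches on cholesterol export genes. BHLHE40 is a basic helix-loop-helix repressor that binds E-boxes and is known for its effects on proliferation and cytokine output of macrophages. Sperm mature and are stored in the epididymal duct, whose mononuclear phagocytes lie in and around its epithelium.

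The promoters of Runx1 and Runx3 share a stretch of letters, and they are shown because both genes are among the 9. RefSeq windows of 300 bases, from 250 before to 50 after an annotated start in build GRCm38.p6, were found for 6 of the 9 genes (11 windows), not for Maf, Spi1 and Bhlhe40. Capitals mark the core letters bound by RUNX proteins (TGTGGT, written ACCACA on the other strand) and the E-box CACGTG bound by BHLHE40. The upstream window of Runx1 lies at chr16:92826025-92826324 on the minus strand and the upstream window of Runx3 at chr4:135120395-135120694 on the plus strand.
Runx1 upstream promoter: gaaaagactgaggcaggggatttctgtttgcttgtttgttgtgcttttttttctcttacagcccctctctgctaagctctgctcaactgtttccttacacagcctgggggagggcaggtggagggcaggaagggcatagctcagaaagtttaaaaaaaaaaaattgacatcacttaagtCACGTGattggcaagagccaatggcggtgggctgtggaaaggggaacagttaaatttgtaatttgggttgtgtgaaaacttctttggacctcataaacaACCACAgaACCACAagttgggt
Runx3 upstream promoter: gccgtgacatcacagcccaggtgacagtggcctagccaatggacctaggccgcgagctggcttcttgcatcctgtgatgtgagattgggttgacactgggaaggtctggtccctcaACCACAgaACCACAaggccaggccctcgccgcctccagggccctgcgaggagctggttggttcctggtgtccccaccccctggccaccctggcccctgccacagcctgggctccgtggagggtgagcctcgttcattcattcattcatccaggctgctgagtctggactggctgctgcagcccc
The stretch shared by both: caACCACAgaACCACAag

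The shared stretch of 18 bases, with 2 copies of the RUNX letters in a row, was present in the windows of 4 genes among the 32851 windows searched, namely Runx1, Runx2, Runx3 and, on the opposite strand, Gm16225, whose window overlaps that of Runx3. It was picked as the longest stretch that the upstream windows of Runx1 and Runx3 share. Its 2 RUNX copies began at bases 29 and 37 after the start in Runx1, but 134 and 126 bases before the start in Runx3. Most stretches of 18 bases would be rare among these windows, so the low count tests nothing. The single RUNX core, of 6 bases, was held by 16.8% of all windows on either strand, and by 1.81% at least 2 times. CACGTG occurred in 7.15% of all windows and in 1 of the 11 windows of these genes, that of Runx1 shown above, 71 bases before the start. The PU.1 core GAGGAA, held by 28.3% of all windows on either strand, occurred in the downstream window of Runx1, in 2 of the 3 windows of Mef2c and in 1 of the 2 of Nr1h3. The C/EBP letters TTGCNNAA (10.8% of all windows) and the core TGCTGAC bound by MAF (4.67%) were in none of the 11. These matches describe letters only, the stretch was noticed after the sequences had been read, and gene counts do not separate 1 start of a gene from another.

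Each library held between 16873180 and 31737132 reads on genes, and 15116 genes, all 9 factors among them, passed the filter on low counts. The titles divide the libraries into series Maj4 (IS replicates 3 and 4, caput/corpus 2 and 3, cauda 3 and 4) and Maj3 (IS 1 and 2, caput/corpus 1, cauda 1 and 2). Nr1h3 had 71 to 252 reads a library apart from cauda replicate 1, which had 2, and this library had reads on 13434 genes, against 17053 to 18837 in the other libraries. For 3 libraries (IS 2, caput/corpus 1 and cauda 1) the deposited count file and the deposited RPKM column of the same name held different reads. Values here follow the column names, and each difference of the 9 factors between regions that passed the test is also given for the 8 libraries without the conflict and for the counts as filed. All 8 core markers of mononuclear phagocytes, Cx3cr1 and Csf1r among them, had reads in all 3 regions.

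Cebpb and Spi1, which encode lineage-determining factors, were the most abundant of the 9, while Cebpa ranked below Bhlhe40 and Mef2c on average. Levels are in RPKM, a unit that accounts for both gene length and sequencing depth, so they can be set side by side between genes. Cebpb averaged 249.4 ± 62.5 RPKM in IS, 305 ± 63.8 RPKM in caput/corpus and 259.8 ± 91.7 RPKM in cauda (SD, n = 4, 3 and 4). Spi1 averaged 178 ± 28.5, 191 ± 26.1 and 188 ± 34.9 RPKM in the same order of regions. Over the 11 libraries these means, 268 RPKM for Cebpb and 185 RPKM for Spi1, lay at the 99.1 and 98.5 percentile of the genes tested. Below them came Bhlhe40 (67.9 RPKM), Mef2c (53.6), Cebpa (32.9), Runx1 (31.6), Maf (24.5), Runx3 (12.8) and Nr1h3 (1.90), the last at the 33.1 percentile. Runx3, the next lowest of the 9, lay at the 71.6 percentile.

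Some neighbours in this order did not hold their places in every library. Cebpb was above Spi1 in 10 of 11 libraries, and Spi1 above Bhlhe40 in 11 of 11. Cebpa was above Runx1 in 6 of 11, so these 2 cannot be ordered, while Runx1 was above Maf, Maf above Runx3 and Runx3 above Nr1h3 in 11 of 11. Bhlhe40 and Mef2c exchanged places by region: Bhlhe40 was above Mef2c in 0 of 4 IS libraries, 3 of 3 caput/corpus libraries and 4 of 4 cauda libraries. Among the 9 factors Bhlhe40 ranked 4 to 8 in the IS libraries and 3 in each caput/corpus and cauda library.

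**Figure D1:**
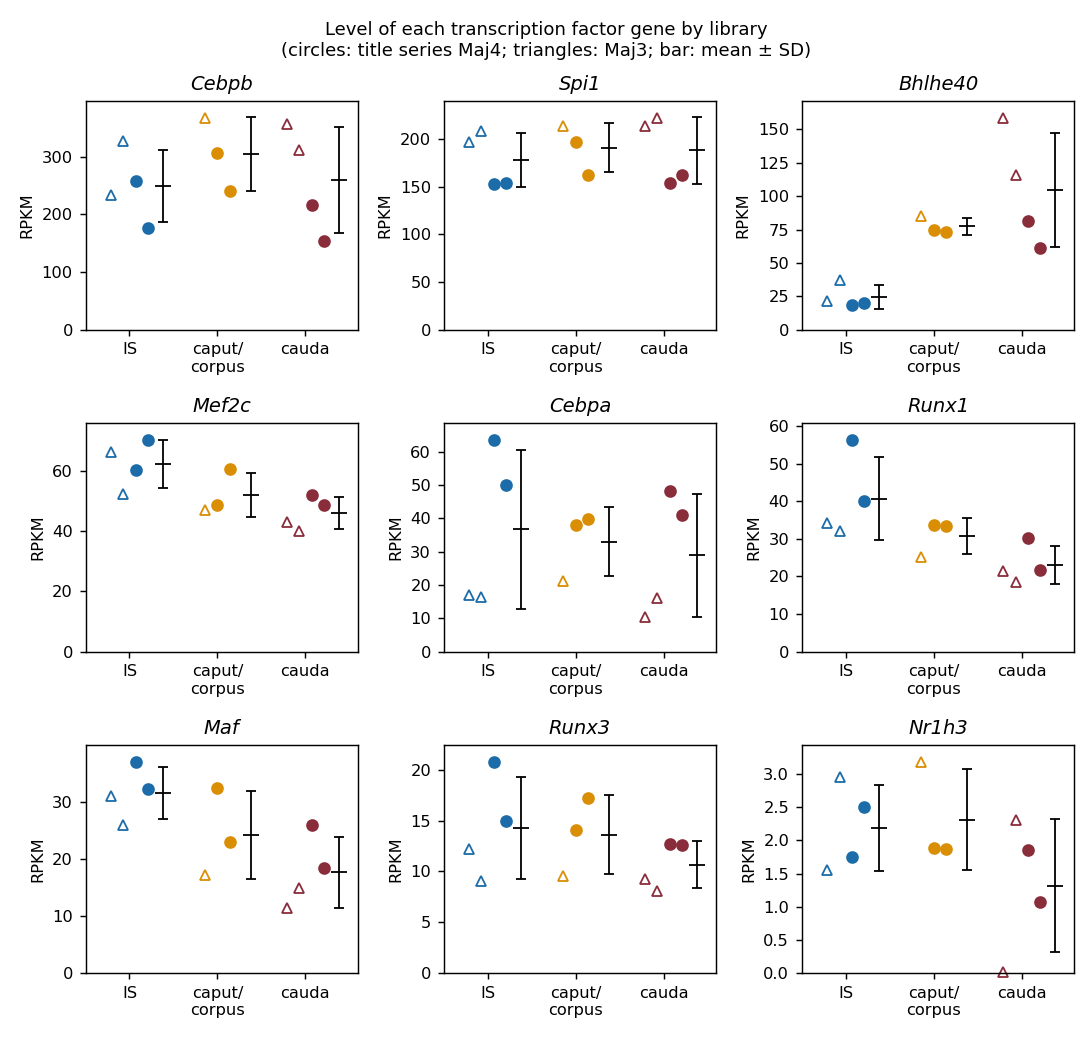
RPKM of each of the 9 transcription factor genes (y axis, from 0) in every library, by region on the x axis; filled circles are title series Maj4, open triangles Maj3, and the bar beside each region is the mean ± SD of its 3 or 4 libraries. The 4 IS libraries of Bhlhe40 sit between 18.6 and 37.3 RPKM, below every caput/corpus and cauda library, and Cebpa splits by title series in all 3 regions.

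The first question is which of these factors differed between the IS, the most proximal region, and the cauda, where sperm are stored. Of the 9 genes, 4 passed the test in this comparison: Maf, Runx1 and Mef2c were higher in IS and Bhlhe40 was lower in IS. Over all 15116 genes 16.5% were called in either direction, 7.4% higher in IS and 9.06% lower. The median log2 fold change of the 9 was 0.39, against 0.05 over all genes tested. The 4 genes had groups that did not overlap, a pattern that 18.5% of all genes tested showed.

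Bhlhe40 (ENSMUSG00000030103) had the largest difference of the 9. Its levels were 21.7, 37.3, 18.6 and 19.96 RPKM in IS replicates 1 to 4, 84.8, 74.3 and 73.1 RPKM in caput/corpus replicates 1 to 3, and 159, 116, 81.4 and 61.4 RPKM in cauda replicates 1 to 4. All IS libraries were below all others, and the caput/corpus libraries lay within the range of the cauda libraries. Means were 24.4 ± 8.70 RPKM in IS (SD, n = 4) and 104 ± 42.7 RPKM in cauda (SD, n = 4). Bhlhe40 RNA was 4.197-fold lower in IS than in cauda, with a log2 fold change of -2.07 ± 0.21 (SE) and an edgeR adjusted p of 0.000196. The same difference was -1.88 within title series Maj4, where it passed the test, and -2.17 within Maj3, where it did not (edgeR adjusted p = 0.117 with 2 libraries a side). It was -2.06 in the 8 libraries without a conflict (edgeR adjusted p = 0.000203). With the counts as filed it was 0.03 (edgeR adjusted p = 0.991), a fit in which the file under IS replicate 2, equal to no column, held 447 RPKM of Bhlhe40.

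Maf (ENSMUSG00000055435) had 31.0, 26.0, 37.0 and 32.2 RPKM in IS replicates 1 to 4, 17.2, 32.3 and 23.0 RPKM in caput/corpus replicates 1 to 3, and 11.5, 15.0, 26.0 and 18.4 RPKM in cauda replicates 1 to 4. The lowest IS library, 26.01 RPKM, was barely above the highest cauda library, 25.98 RPKM, and caput/corpus overlapped both. Maf RNA was 1.83-fold higher in IS than in cauda, with a log2 fold change of 0.87 ± 0.17 and an edgeR adjusted p of 0.00641. In the 8 libraries without a conflict the log2 fold change was 0.78 (edgeR adjusted p = 0.025), and with the counts as filed it was 0.64 (edgeR adjusted p = 0.131). Within Maj4 it was 0.65 and within Maj3 1.16, and neither series passed the test alone (edgeR adjusted p = 0.152 and 0.143).

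Runx1 (ENSMUSG00000022952), the gene whose promoter is shown above, had 34.3, 32.0, 56.5 and 40.2 RPKM in IS replicates 1 to 4, 25.2, 33.7 and 33.4 RPKM in caput/corpus replicates 1 to 3, and 21.4, 18.6, 30.2 and 21.7 RPKM in cauda replicates 1 to 4. Every IS library exceeded every cauda library, and the caput/corpus libraries overlapped both groups. Runx1 RNA was 1.75-fold higher in IS than in cauda, with a log2 fold change of 0.81 ± 0.14 and an edgeR adjusted p of 0.00294. It was 0.89 in the 8 libraries without a conflict (edgeR adjusted p = 0.00802) and 0.74 with the counts as filed (edgeR adjusted p = 0.095). Within Maj4 it was 0.90 and within Maj3 0.78 (edgeR adjusted p = 0.0545 and 0.154).

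Mef2c (ENSMUSG00000005583), which encodes a MADS-box factor known for its part in microglia and in myeloid fate choice, differed least of the 4. It had 66.3, 52.3, 60.5 and 70.5 RPKM in IS replicates 1 to 4, 47.2, 48.6 and 60.6 RPKM in caput/corpus replicates 1 to 3, and 43.0, 40.3, 52.1 and 48.6 RPKM in cauda replicates 1 to 4. The lowest IS library, 52.31 RPKM, and the highest cauda library, 52.14 RPKM, nearly met. Mef2c RNA was 1.36-fold higher in IS than in cauda, with a log2 fold change of 0.44 ± 0.11 and an edgeR adjusted p of 0.0228. Leaving out IS replicate 1, IS replicate 4, cauda replicate 2 or cauda replicate 4 ended the call (edgeR adjusted p = 0.0737, 0.0647, 0.0675 and 0.0637). The log2 fold change was 0.49 in the 8 libraries without a conflict (edgeR adjusted p = 0.0401), 0.49 with the counts as filed (edgeR adjusted p = 0.0985), 0.38 within Maj4 and 0.56 within Maj3 (edgeR adjusted p = 0.235 and 0.308).

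The other 5 factors did not pass the test between IS and cauda. Spi1 differed by -0.08 ± 0.09 on the log2 scale, with a 95% interval of the difference from -0.26 to 0.09. For Cebpb the difference was -0.02 ± 0.19, with an interval from -0.38 to 0.34. For Cebpa it was 0.33 ± 0.20 (interval -0.06 to 0.72), and for Runx3, which had 12.2, 9.09, 20.8 and 15.0 RPKM in IS and 9.26, 8.13, 12.7 and 12.6 RPKM in cauda, 0.39 ± 0.15 (edgeR adjusted p = 0.102). Nr1h3 was listed at 1.56, 2.94, 1.75 and 2.50 RPKM in IS and at 0.0243, 2.31, 1.85 and 1.07 RPKM in cauda, and its log2 fold change was 0.73 ± 0.86 with an interval from -0.95 to 2.41. Leaving out 1 library moved it to values between 0.29, without cauda replicate 1, and 1.38, without cauda replicate 2.

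**Figure D2:**
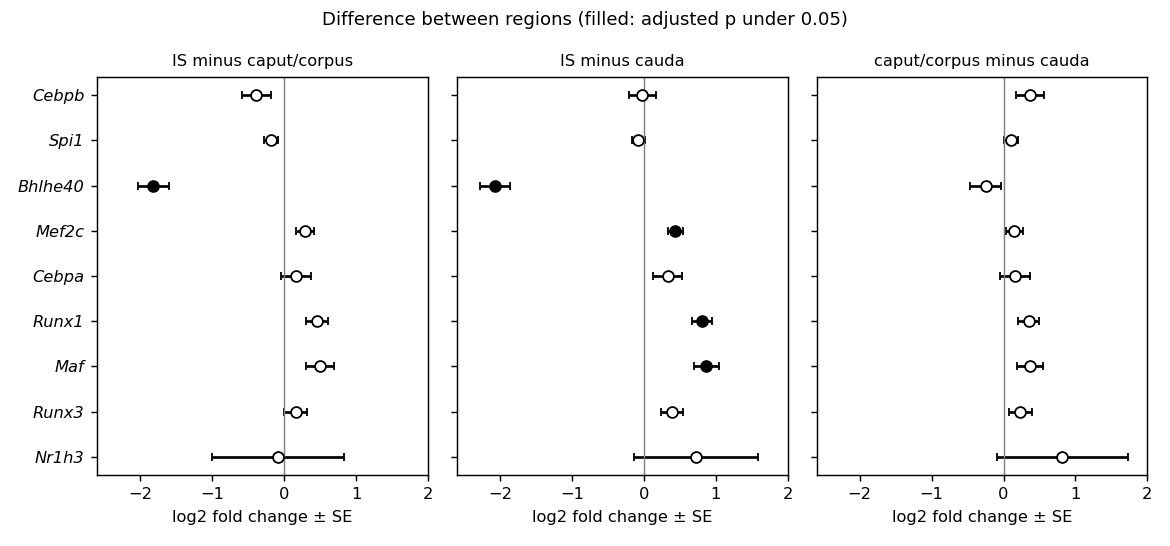
Log2 fold change ± SE of the 9 genes (rows, most abundant at the top) between IS and caput/corpus, IS and cauda, and caput/corpus and cauda, from 1 edgeR fit of 11 libraries; filled points passed an adjusted p of 0.05. Bhlhe40 is the only filled point in the left panel (-1.82), 4 points are filled in the middle panel and 0 in the right panel.

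The second question is whether the IS also differed from the neighbouring caput/corpus. Bhlhe40 was the 1 gene of the 9 that passed the test, and 3.78% of all genes did, 2.98% lower in IS as Bhlhe40 was. Its mean was 24.4 ± 8.70 RPKM in IS (SD, n = 4) and 77.4 ± 6.45 RPKM in caput/corpus (SD, n = 3), and its groups did not overlap, which held for 14.3% of all genes. Bhlhe40 RNA was 3.54-fold lower in IS, with a log2 fold change of -1.82 ± 0.22 and an edgeR adjusted p of 0.00314. The difference was -1.94 within Maj4, where it passed the test, and -1.55 within Maj3, where caput/corpus is 1 library, taken to scatter as the other groups do (edgeR adjusted p = 1). It was -2.02 in the 8 libraries without a conflict (edgeR adjusted p = 0.00187) and 0.06 with the counts as filed (edgeR adjusted p = 0.993). For Maf, Runx1 and Mef2c the differences were 0.50 ± 0.19, 0.46 ± 0.15 and 0.29 ± 0.12, and the edgeR adjusted p was 0.217, 0.139 and 0.285. The median log2 fold change of the 9 was 0.16, against 0.02 over all genes.

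Between caput/corpus and cauda, edgeR called 0 of the 9 factors, with 0.615% of all genes called. At an unadjusted p under 0.05 there was 1 of the 9, Runx1, and 1772 of all 15116 genes. DESeq2 and limma also called 0 of the 9. The log2 fold changes ran from -0.25 ± 0.22 for Bhlhe40 to 0.82 ± 0.91 for Nr1h3, with a median of 0.23, against 0.02 over all genes. For Bhlhe40 the 95% interval was -0.68 to 0.19. The means of Maf (31.6, 24.2 and 17.7 RPKM), Runx1 (40.7, 30.8 and 23.0 RPKM) and Mef2c (62.4, 52.2 and 46.0 RPKM) in IS, caput/corpus and cauda were in the same order for the 3 genes, but only the step from end to end passed the test. The comparisons share libraries and are not independent of each other.

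The title series were compared in the same fit. With region in the model, 7 of 9 were called between Maj4 and Maj3, where 20.3% of all genes were called. Cebpa, Runx3, Maf and Runx1 were higher in Maj4 (10.6% of all genes were), and Spi1, Cebpb and Bhlhe40 were lower in Maj4 (9.73%). With 1 library left out the count of 7 fell to as few as 3: Maf, Bhlhe40, Runx1 and Cebpb lost the call in 3, 5, 6 and 7 of the 11 fits, and Cebpa, Runx3 and Spi1 kept it. Cebpa (ENSMUSG00000034957), the C/EBP member linked to granulocyte and monocyte commitment, stood out: it had 63.7 and 49.9 RPKM in the Maj4 IS libraries, against 16.9 and 16.3 RPKM in the Maj3 IS libraries. In caput/corpus it had 38.0 and 39.9 RPKM in Maj4, against 21.2 RPKM in Maj3, and in cauda 48.2 and 41.1 RPKM in Maj4, against 10.4 and 16.2 RPKM in Maj3. The Maj4 libraries ran from 38.0 to 63.7 RPKM and the Maj3 libraries from 10.4 to 21.2 RPKM, so the series did not overlap (12.1% of all genes did not). The log2 fold change of Cebpa was 1.54 ± 0.18 (2.91-fold higher in Maj4) with an edgeR adjusted p of 0.000387, and it was 1.61 in the 8 libraries without a conflict (edgeR adjusted p = 0.00184). What the series stand for is not stated in the labels beyond the titles.

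Runx3 was the other factor whose series did not overlap, at 12.6 to 20.8 RPKM in Maj4, against 8.13 to 12.2 RPKM in Maj3 (log2 fold change 0.67 ± 0.13, edgeR adjusted p = 0.00522). For Spi1, with 153 to 197.1 RPKM in Maj4 and 196.5 to 222 RPKM in Maj3, the log2 fold change was -0.38 ± 0.08 (edgeR adjusted p = 0.00719). Mef2c and Nr1h3 did not pass the test between series. In the 8 libraries without a conflict 1 of the 9, Cebpa, was called between series. This comparison was added after the levels by library had been seen.

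**Figure D3:**
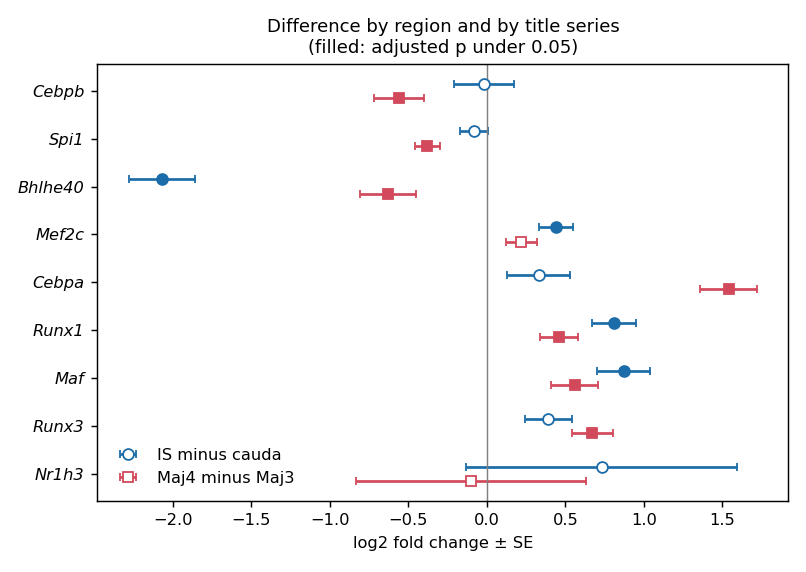
Log2 fold change ± SE of the 9 genes between IS and cauda (blue circles) and between title series Maj4 and Maj3 (red squares), from the same edgeR fit; filled symbols passed an adjusted p of 0.05. The largest value by region is that of Bhlhe40 (-2.07) and the largest by series that of Cebpa (1.54).

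Other factors that pair with the 9 or belong to their families were measured in the same cells. Of 18 paralogs and partners, 17 were tested. Between IS and cauda, 2 were higher in IS and 2 lower. For this list and those below, 7.4% of all genes tested were called higher in IS than in cauda and 9.06% lower. Between IS and caput/corpus 3.78% of all genes were called, 2.98% lower in IS. Bhlhe41, the close paralog of Bhlhe40, was higher in IS (6.46 ± 3.67 RPKM in IS and 1.15 RPKM in cauda, log2 fold change 2.52 ± 0.42, edgeR adjusted p = 0.00247), the opposite direction to Bhlhe40. Spib, the ETS paralog of Spi1, was lower in IS (2.92 RPKM in IS and 11.7 RPKM in cauda, log2 fold change -2.0, edgeR adjusted p = 0.000274). Cbfb, the common partner subunit of the RUNX proteins, was also lower in IS (47.8 RPKM in IS and 65.9 RPKM in cauda, log2 fold change -0.47, edgeR adjusted p = 0.0217). Cbfb lost the call in 5 of the 11 fits that left out 1 library. Spib was the 1 gene of the 17 called between IS and caput/corpus, again lower in IS (log2 fold change -2.05, edgeR adjusted p = 0.00273). Median log2 fold changes of the 17 were 0.02 and 0.11 in these comparisons with caput/corpus and cauda, near those of all genes (0.02 and 0.05).

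A second list held 26 further transcription factors of mononuclear phagocytes, of which 25 were tested. Between IS and cauda 1 was higher in IS and 9 were lower in IS. Klf4, a Krüppel-like factor of monocytes, was lower in IS (5.36 RPKM in IS and 24.5 RPKM in cauda, log2 fold change -2.30, edgeR adjusted p = 0.000593). Nr4a1, the orphan nuclear receptor needed by patrolling monocytes, had 101 RPKM in IS and 484 RPKM in cauda (log2 fold change -2.24, edgeR adjusted p = 0.00262). Id3, an inhibitor of helix-loop-helix factors, had 3.23 and 11.3 RPKM (log2 fold change -2.05, edgeR adjusted p = 0.0458), but it lost the call in 9 of the 11 fits that left out 1 library. Sall1, a zinc finger factor known from microglia, was called higher in IS. It had 1.34 to 8.35 RPKM in IS and was listed at 0.022 RPKM in 1 cauda library and at 0 in the other cauda libraries. Between IS and caput/corpus 6 of the 25 were lower in IS, led by Nr4a1 (log2 fold change -2.48), Klf4 (-1.77) and Irf4 (-1.39), a factor of type 2 dendritic cells. The median of the 25 was -0.44 between IS and cauda and -0.29 between IS and caput/corpus, against 0.05 and 0.02 over all genes.

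Known target genes of Nr1h3, Spi1, Cebpa and Cebpb, and genes that depend on Maf, were examined beside the members themselves. Of 9 LXR targets, 4 were higher in IS than in cauda and 2 were lower. Apoe, the lipid carrier, had 1.833e+04 RPKM in IS and 4122 RPKM in cauda (log2 fold change 2.13, edgeR adjusted p = 0.000355). Abca1, the cholesterol exporter, had 64.9 and 23.2 RPKM (1.58, edgeR adjusted p = 0.00107), and Mylip, a ubiquitin ligase of the LDL receptor, had 54.9 and 20.3 RPKM (1.45, edgeR adjusted p = 0.000196). Smpdl3a, a phosphodiesterase, and Pltp, the phospholipid transfer protein, were lower in IS, with log2 fold changes of -1.81 and -1.39 to cauda and of -1.48 and -1.31 to caput/corpus. The calls to caput/corpus were lost in 1 (Smpdl3a) and 4 (Pltp) of the 11 fits that left out 1 library. The LXR targets thus did not share a direction, and Nr1h3 itself did not pass the test. The median log2 fold change of these 9 targets between IS and cauda was 0.50, against 0.05 over all genes.

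Of 11 known PU.1 targets, 5 were higher in IS than in cauda. Msr1, the class A scavenger receptor, had 65.8 RPKM in IS and 17.3 RPKM in cauda (log2 fold change 1.90, edgeR adjusted p = 8.36e-05). Csf1r, which encodes the CSF1 receptor on which macrophage survival depends, had 630.3 and 287 RPKM (1.14, edgeR adjusted p = 0.0047), and Fcgr3, a low-affinity Fc receptor, had 471 and 219 RPKM (1.01, edgeR adjusted p = 0.0087). The median of the 11 was 0.48, against 0.05 over all genes, while Spi1 itself differed by -0.08. Msr1 was also higher in IS than in caput/corpus (1.01, edgeR adjusted p = 0.01) and higher in caput/corpus than in cauda (0.89, edgeR adjusted p = 0.0439), the last without support in 9 of the 11 fits that left out 1 library.

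Of 8 known C/EBP targets, 1 was higher in IS than in cauda and 2 were lower, with a median of -0.09, against 0.05 over all genes. Csf3r, the G-CSF receptor, had 38.6 RPKM in IS and 15.2 RPKM in cauda (log2 fold change 1.34, edgeR adjusted p = 0.000632). Lyz2, lysozyme, had 5441 and 8496 RPKM (-0.67, edgeR adjusted p = 0.0207) and lost the call in 4 of the 11 fits that left out 1 library. Ptgs2, the inducible cyclooxygenase, was lower in IS than in cauda (-1.65, edgeR adjusted p = 0.0375) and than in caput/corpus (-2.39, edgeR adjusted p = 0.0313), and it lost these calls in 8 and 7 of the 11 fits that left out 1 library. Of 9 genes that depend on Maf in macrophages, 3 were higher in IS than in cauda and 1 was lower. The median log2 fold change of these 9 genes was 0.55, against 0.05 over all genes. Stab1, a scavenger receptor, had 143 and 34.95 RPKM (2.11, edgeR adjusted p = 0.000453), and the complement genes C1qc and C1qa had log2 fold changes of 1.01 and 0.91. Stab1 was also higher in IS than in caput/corpus (1.12, edgeR adjusted p = 0.0475), a call lost in 8 of the 11 fits that left out 1 library. Cd163, the haemoglobin scavenger receptor, was lower in IS (-1.37, edgeR adjusted p = 0.0255), against the direction of Maf. It lost the call in 6 of the 11 fits and kept it in the 8 libraries without a conflict (-1.80, edgeR adjusted p = 0.00327). Folr2 and Lyve1 were also lower in IS (-1.65 and -1.93) but did not pass the test (edgeR adjusted p = 0.0682 and 0.137). C1qb and Mrc1 were higher in IS (0.61 and 0.30) and did not pass it either (edgeR adjusted p = 0.054 and 0.201). Il10, which c-MAF is known to activate, had 3.33 ± 1.78 RPKM in IS and 2.37 ± 1.75 RPKM in cauda and did not pass the test (edgeR adjusted p = 0.756).

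Over the 6 lists, edgeR called 12 of the 78 tested genes in the comparison of IS with caput/corpus, 32 in that of IS with cauda and 3 in that of caput/corpus with cauda. The last 3 were Sall1, Mylip and Msr1, higher in caput/corpus. Sall1 lost this call in the 3 fits that left out cauda replicate 2, 3 or 4, with the replicate block, with both limma fits and in each title series alone, and Mylip (log2 fold change 0.91, edgeR adjusted p = 0.0304) lost the call in 8 of the 11 fits that left out 1 library. The 8 libraries without a conflict gave 21, 37 and 1 calls, which took in 11 of the 12, 29 of the 32 and 1 of the 3: Zbtb46 was lost from the first, Cbfb, Irf5 and Tfeb from the second, and Mylip and Msr1 from the third. Between IS and cauda these libraries gave 4 genes higher and 1 lower in IS among paralogs and partners, and 3 higher and 3 lower among the Maf-dependent genes. With the counts as filed edgeR called 0 of the 78 in each comparison. At an unadjusted p under 0.05 there were 7, 20 and 5 of the 78, and 1166, 3098 and 992 of all genes. As filed, Id3 and Ptgs2 had log2 fold changes of 1.51 and 0.57 between IS and cauda, opposite in sign to those above. Zbtb46 and Batf3 stand both among the transcription factors and among the dendritic cell markers below, and Csf1r, Itgam and Fcgr1 both among the PU.1 targets and the core phagocyte markers.

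**Figure D4:**
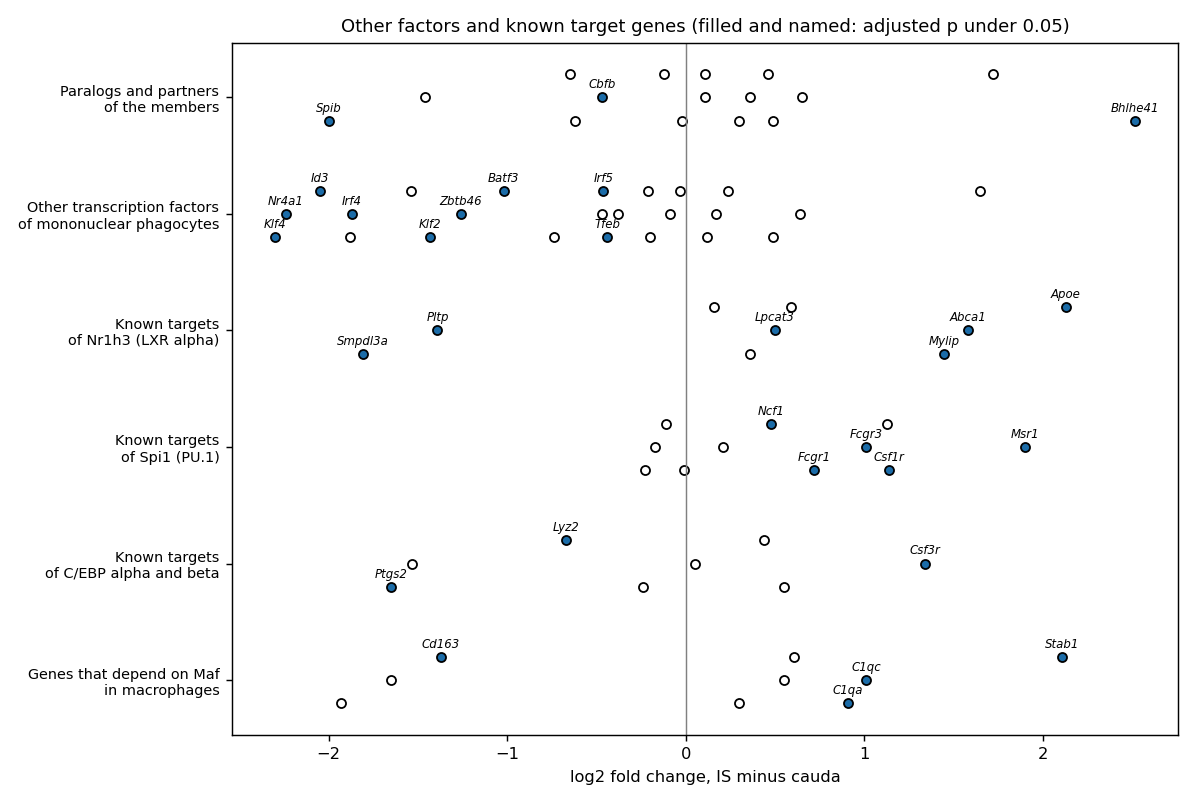
Log2 fold change between IS and cauda (x axis) of the tested genes in 6 lists (rows; the vertical offset within a row has no meaning); filled and named points passed an edgeR adjusted p of 0.05. Sall1 is left out because it is listed at 0 in all but 1 cauda library, and 1 gene of the top row is not drawn; in the row of other transcription factors the 9 genes called lower in IS lie left of 0.

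Markers of other cell types also differed between the regions. The summed level of 9 mast cell and basophil markers was 24.9 to 99.0 RPKM in IS, 625 to 892 RPKM in caput/corpus and 881 to 3463 RPKM in cauda, and 8 of the 9 were called lower in IS than in caput/corpus and 9 of 9 than in cauda. For 8 monocyte markers the sums were 255 to 524, 843 to 1370.0 and 1398 to 1967 RPKM, with 6 and 7 called lower in IS. For 9 markers of conventional dendritic cells they were 196 to 367, 716 to 1023 and 638.5 to 1404 RPKM, with 5 and 6 called lower in IS. The sums of these lists were lower in IS than in caput/corpus and cauda, as were Bhlhe40, Spib, Klf4 and Nr4a1. A correlation of these lists with the factors was not computed. None of their markers was at 0 in all libraries of a region.

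Epithelial markers ran the other way. The summed level of 10 epididymal epithelial markers was 933 to 2247 RPKM in IS, 225 to 449 RPKM in caput/corpus and 11.5 to 27.2 RPKM in cauda, with 9 of 10 called higher in IS than in cauda, and 6 higher and 1 lower in IS than in caput/corpus. That of 9 fibroblast, smooth muscle and endothelial markers was 71.5 to 239 RPKM in IS, 18.2 to 118 RPKM in caput/corpus and 4.62 to 29.6 RPKM in cauda, with 2 called higher in IS. The sums of these lists were higher in IS than in cauda, as were Maf, Runx1 and Mef2c, and so was that of the core markers below. No correlation of lists with factors was computed. The 8 core mononuclear phagocyte markers summed to 2095 to 2874 RPKM in IS, 1581 to 2527 RPKM in caput/corpus and 1555 to 1870.0 RPKM in cauda, and 5 of 8 were called higher and 1 lower in IS than in cauda. The 9 lymphocyte markers summed to 11.8 to 42.8 RPKM in IS, 33.5 to 59.9 RPKM in caput/corpus and 1.41 to 24.4 RPKM in cauda. The 7 neutrophil markers stayed between 0 and 1.57 RPKM in sum, with Ly6g at 0 in every library, and the 6 sperm and germ cell markers between 0 and 13.8 RPKM. Of all genes tested, 3.78% were called between IS and caput/corpus and 16.5% between IS and cauda. Over the 9 marker lists edgeR called 28 of the 63 tested genes in the first comparison and 40 in the second. The 8 libraries without a conflict gave 28 and 39, and Maj3 libraries alone gave 0 and 9. The counts as filed gave 0 in both, with 4 and 25 at an unadjusted p under 0.05 (1166 and 3098 of all genes). The part of each of these cell types in the differences of the 9 factors was not tested, and in such bulk libraries fewer cells of a type and less RNA per cell cannot be told apart.

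The genes whose pattern over the 11 libraries was most like that of each factor were looked up by Pearson's r of log2(RPKM + 0.1). This is a description over libraries that share region, title series and depth. For Bhlhe40 they were Cd300c (r = 0.991) and Ccnd3 (0.985), for Cebpa Hsd17b11 (0.985) and Lag3 (0.983), for Runx1 Myom1 (0.971) and Adap2 (0.958), and for Maf Ulk2 (0.953) and Vegfb (0.947). Spi1 was most like Bcap29 and Sarnp (both 0.975), Runx3 most like Gm17231 (0.958) and Zfyve1 (0.951), Mef2c most like Gm15747 (0.941) and Firre (0.935), and Cebpb most like Tradd (0.936) and Med29 (0.932). Without cauda replicate 1 (n = 10) these values were between 0.922 and 0.990. The genes most like Nr1h3, Cenpu (0.977) and Aldh16a1 (0.974), were so through that 1 library: without it r was 0.792 and 0.701. Among the 9 themselves the highest r were those of Maf and Runx1 (0.891) and Cebpa and Runx3 (0.845). The lowest were those of Cebpa and Spi1 (-0.894), Mef2c and Bhlhe40 (-0.854), Spi1 and Runx3 (-0.829), and Maf and Bhlhe40 (-0.820).

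Exons of Maf, Cebpa, Cebpb, Runx1 and Bhlhe40 overlap a gene on the opposite strand in GENCODE M21, and counting was not stranded, so reads of the 2 strands cannot be told apart there. The partners in the table were at 0 to 0.614 RPKM for Gm15655 (Maf) and 0610040F04Rik (Bhlhe40) and at 13.7 to 20.2 RPKM for Tmem189 (Cebpb).

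**Figure D5:**
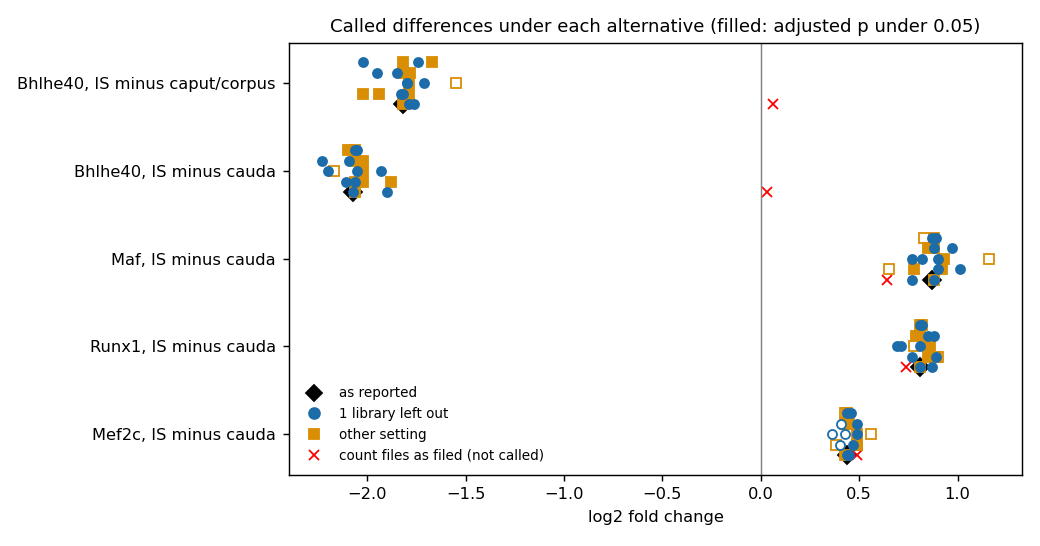
Log2 fold change of the 5 differences between regions that passed the test (rows), as reported (black diamonds), with 1 library left out (blue circles), under other settings (orange squares) and with the count files as filed (red crosses); filled symbols passed an adjusted p of 0.05. The crosses of Bhlhe40 lie at 0.06 and 0.03, while its other symbols lie between -2.23 and -1.55.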

How the data were processed

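Per the labels' protocols, RNA was isolated with a PicoRNA kit and libraries were made with the Clontech SMARTER kit v4 and sequenced on a HiSeq2500. The submitters' processing notes name STAR, HTSeq, edgeR and build mm9, without versions or roles. The authors deposited a file of whole read counts per Ensembl gene for each sample, counted without strand per the file names, and a table of RPKM with 1 column per sample. Each RPKM multiplied by gene length came out as an integer number of steps in all 37583 genes and 11 columns (tolerance 0.001), which gave the reads behind each column. For 8 libraries they equal the count file. The file under IS replicate 2 equals no column, that under caput/corpus replicate 1 equals the column IS replicate 2, that under cauda replicate 1 equals the column caput/corpus replicate 1, and the column cauda replicate 1 equals no file. The reads behind the named columns were tested.

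The edgeR quasi-likelihood test (edgeR 4.0.16, R 4.3.3) was run in 1 fit of 11 libraries with TMM normalization, filterByExpr by region (15116 genes) and title series as covariate. Genes were called at a Benjamini-Hochberg adjusted p under 0.05 over all genes tested. The SE is the log2 fold change over the root of F, and 95% intervals are 1.96 SE each way, unadjusted. DESeq2 1.42.0, limma 3.58.1 on log2(RPKM + 1) and log2(RPKM + 0.1), other fits and counts as filed were alternatives. Steps were tested on simulated data. Symbols come from GENCODE M21 (32860 genes matched). No gene positions of build mm9 are given. In the files as filed 12.5% to 35.8% of reads were not unique, 7.75% to 24.8% were outside genes and 1.74% to 2.12% were ambiguous between genes. These reads stayed out of library sizes.

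The 9 genes and all lists were chosen with earlier results of these data known. Of each list, the called genes with the largest absolute log2 fold change were named, up to 3 per direction and comparison; for each factor the 2 most like genes were named. Other genes named for contrast, such as Il10, were chosen after their values were seen. Values of 2 genes of the lists are not reported here. Libraries with equal label numbers were not treated as pairs in the main fit, and whether they are pairs was not settled.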

Additional observations from a re-analysis of the deposited data

Results flagged for a closer look

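The Bhlhe40 level of IS replicate 2, 37.3 RPKM, lay apart from the other IS libraries, which were at 18.6 to 21.7 RPKM. The gap to the nearest of them was 0.834 of the range of the group, above Dixon's critical value for 4 samples. Chance flags about 1 in 20 groups, and 18 groups were examined. This is 1 of the libraries whose count file and column differ, and the difference between IS and caput/corpus was -2.02 on the log2 scale in the 8 libraries without it and the other conflicts.

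The count file under IS replicate 2 that equals no column of the RPKM table held 40519 reads of Bhlhe40, or 447 RPKM, above the 18.6 to 159 RPKM of the named columns. Which region this file comes from was not tested, and it enters no result other than the counts as filed.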

How the results depend on the processing

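Apart from fits that left out 1 library, 267 of the values recomputed for single factors kept their direction and their side of the threshold, 13 lost the call, 2 gained it and 15 changed sign. Where a value is given here without a cause, the cause was not tested. The RLE size factors and the fit without a filter on low counts left every count of called factors as it was. DESeq2 called 2, 5 and 0 of the 9 factors between IS and caput/corpus, IS and cauda, and caput/corpus and cauda. It added Runx1 (0.50, adjusted p = 0.0405) to the first and Runx3 (0.44, adjusted p = 0.0332) to the second. Without title series in the model edgeR called 2 between IS and cauda: Maf (0.83, edgeR adjusted p = 0.0734) and Mef2c (0.43, edgeR adjusted p = 0.105) were lost. Maj4 libraries alone gave 1 call there. Maj3 libraries alone gave 0 calls between IS and cauda, with 4 factors and 2036 of all genes at an unadjusted p under 0.05. Their caput/corpus group is 1 library. For the 2 IS comparisons as filed, 2 and 4 factors had an unadjusted p under 0.05, as had 1166 and 3098 of all genes. The counts as filed gave 0 calls in both of these comparisons, and 3 between title series. The 8 libraries gave 1 between title series.

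Of all genes, the number called between IS and caput/corpus was 571, and it was 1334 with DESeq2, 233 without title series, 934 with limma on log2(RPKM + 1), 954 in the 8 libraries, and 0 in Maj3 alone and as filed (404 and 1166 at an unadjusted p under 0.05). Between IS and cauda it was 2488, and 3811 with DESeq2, 1481 without title series, 1144 in Maj4, 30 in Maj3 and 4 as filed. Between caput/corpus and cauda it was 93, and 696 with DESeq2, 184 without the filter, 28 in Maj4, 5 in Maj3, 143 and 188 with limma at pseudocounts of 1 and 0.1, 52 in the 8 libraries and 0 as filed (992 at an unadjusted p under 0.05). Between title series it was 3073, and 1811 in the 8 libraries.

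Signs changed only for differences that passed no test, apart from Bhlhe40 as filed (0.06 to caput/corpus and 0.03 to cauda). Between IS and caput/corpus Cebpa was -0.38 in Maj3, and Nr1h3 was 0.57 with the replicate block, 0.17 in Maj4 and 0.01 in the 8 libraries. Between IS and cauda Cebpb was 0.03 with RLE and with DESeq2, 0.24 in Maj4, 0.29 as filed and 0.02 in the 8 libraries. Between caput/corpus and cauda Bhlhe40 was 0.06 in Maj4, and Cebpa was -0.19 in Maj4, -0.21 as filed and -0.24 in the 8 libraries. Between title series Nr1h3 was 0.00 and 0.36 with limma at pseudocounts of 1 and 0.1.

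Within a title series the labels number the libraries of each region, and these numbers are not always the replicate numbers used here. Deviations of libraries of different regions with the same series and label number correlated at -0.242 to 0.284. For the same series but different label numbers they correlated at -0.547 to 0.077. With so few libraries this does not decide whether they were paired. The replicate block joins libraries by title series and label number. The fit with the replicate block called 1, 4 and 0 factors and 398, 2362 and 41 genes in the 3 comparisons, and it changed no call of the 9.

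With 1 library left out, the called factors numbered 1, 3 to 4 and 0 between regions and 3 to 7 between title series. All genes called ranged from 234 to 1353, from 1641 to 3124, from 29 to 205 and, between title series, from 2003 to 4559. Signs changed for Nr1h3 between IS and caput/corpus (-0.27 to 0.28) and between title series (-0.43 to 0.44), for Cebpb between IS and cauda (-0.17 to 0.10) and for Cebpa between caput/corpus and cauda (-0.20 to 0.31). Nr1h3 had 2 reads among the 29712956 of cauda replicate 1 and 93 among the 16873180 of cauda replicate 3, the library with the fewest reads.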

Other observations

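In the count file under IS replicate 2 that equals no column, the other factors, scaled with that file's own effective size, were Maf 18.6, Spi1 190.3, Cebpa 22.2, Cebpb 615, Runx1 30.7, Runx3 15.6, Mef2c 65.7 and Nr1h3 2.42 RPKM. Cebpb and Bhlhe40 were above every named column, whose highest values were 368 and 159 RPKM, and the other factors lay within the range of the named columns.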
